A study of Mus musculus with 6 samples.

Results

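Immediate early genes, together with genes that restrain mitogen-activated protein kinase (MAPK) signalling, were described in mouse embryonic fibroblasts that lack Kdm5a and carry KDM5A-H483A, wild-type KDM5A or an empty vector. The set holds 33 genes named for this role, and all 33 were measured among 18194 genes on the array. Each gene is represented by its brightest probe set, by mean over the 6 arrays, among those annotated to it alone, and probe sets whose ID ends in _x_at, the mark of possible cross-hybridization, were passed over where another existed. Of the 33 genes, 15 had more than 1 probe set, with 59 probe sets in all. Values are log2 expression levels made by the authors with RMA, which corrects background, equalises the distributions of the arrays and combines the probes of a probe set.

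All cells were immortalized, came from a mixed strain background and carried the Kdm5a deletion, empty vector controls included. The 3 groups were cells with re-introduced KDM5A-H483A, a mutant form with alanine in place of a catalytic histidine, cells with re-introduced wild-type KDM5A, and cells with empty vector, with 2 arrays per group. KDM5A removes methyl groups from lysine 4 of histone H3. Cultures were below confluence in serum-containing medium and were harvested with trypsin before RNA extraction. The labels do not state how the cells were immortalized, which promoter drove the re-introduced gene or whether a line came from 1 clone. Both arrays of a group carry the label biological replicate, which does not tell where the cultures diverged. P-values therefore reflect only the spread between these samples. The first and second array below are replicates 1 and 2 of the labels.

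Immediate early genes are transcribed within minutes of a growth or stress signal, without new protein synthesis. Extracellular signal-regulated kinase (ERK), acting through SRF and its ETS partners, and kinases that phosphorylate CREB switch on genes such as Fos, Egr1 and Ier2, whose mRNAs are short-lived. Fos and Jun proteins then pair into the transcription factor AP-1, and a second wave of targets follows. The same signal induces its own brakes: dual-specificity phosphatases (Dusp genes) remove phosphate from MAPKs, Sprouty proteins act upstream of ERK, and Zfp36 protein promotes decay of short-lived mRNAs. In fibroblasts the set is best known from the response of resting cultures to serum.

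Promoter sequence is shown first for 6 genes on which the results below turn: Fos, Junb and Zfp36, which stood higher in the first array of every group, Klf4 and Nr4a1, whose brightest probe sets stood higher in the second array of every group, and the phosphatase gene Dusp1. Each stretch is the 250 bases before the start in the RefSeq promoter table (build GRCm38.p6), written 5′ to 3′ on the gene's strand. The stretches lie at chr12:85473640-85473889 (plus strand) for Fos, chr8:84978749-84978998 (minus) for Junb, chr7:28379229-28379478 (minus) for Zfp36, chr4:55532476-55532725 (minus) for Klf4, chr15:101266596-101266845 (plus) for Nr4a1 and chr17:26508473-26508722 (minus) for Dusp1. Capitals mark matches to the CREB site TGACGTCA, its core TGACG, the EGR site GCGNGGGCG, the AP-1 site TGANTCA and the CArG box bound by SRF, searched on both strands. A full CREB site contains the core, and the other motifs were searched independently of each other.
Fos: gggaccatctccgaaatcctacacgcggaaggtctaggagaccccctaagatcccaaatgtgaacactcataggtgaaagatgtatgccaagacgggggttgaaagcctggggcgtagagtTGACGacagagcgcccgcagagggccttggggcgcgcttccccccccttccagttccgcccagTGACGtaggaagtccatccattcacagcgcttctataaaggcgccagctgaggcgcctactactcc
Junb: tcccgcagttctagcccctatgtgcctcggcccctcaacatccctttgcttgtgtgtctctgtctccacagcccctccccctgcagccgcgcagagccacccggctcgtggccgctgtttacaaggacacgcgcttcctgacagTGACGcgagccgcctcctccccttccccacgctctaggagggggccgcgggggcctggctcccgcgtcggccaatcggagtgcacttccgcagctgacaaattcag
Zfp36: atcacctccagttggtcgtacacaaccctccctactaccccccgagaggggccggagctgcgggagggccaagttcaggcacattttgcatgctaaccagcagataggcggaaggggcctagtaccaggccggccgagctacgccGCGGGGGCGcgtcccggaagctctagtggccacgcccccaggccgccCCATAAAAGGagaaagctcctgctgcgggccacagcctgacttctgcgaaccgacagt
Klf4: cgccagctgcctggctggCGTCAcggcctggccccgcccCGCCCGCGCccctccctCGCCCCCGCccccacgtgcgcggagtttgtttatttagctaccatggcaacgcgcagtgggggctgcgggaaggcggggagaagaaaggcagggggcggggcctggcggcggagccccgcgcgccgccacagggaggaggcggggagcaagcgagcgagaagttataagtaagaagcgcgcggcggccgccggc
Nr4a1: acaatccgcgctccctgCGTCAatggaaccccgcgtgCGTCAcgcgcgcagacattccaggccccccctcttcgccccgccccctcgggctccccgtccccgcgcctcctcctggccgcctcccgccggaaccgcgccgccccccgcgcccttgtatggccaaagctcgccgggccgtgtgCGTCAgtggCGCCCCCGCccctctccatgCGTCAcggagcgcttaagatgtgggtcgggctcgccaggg
Dusp1: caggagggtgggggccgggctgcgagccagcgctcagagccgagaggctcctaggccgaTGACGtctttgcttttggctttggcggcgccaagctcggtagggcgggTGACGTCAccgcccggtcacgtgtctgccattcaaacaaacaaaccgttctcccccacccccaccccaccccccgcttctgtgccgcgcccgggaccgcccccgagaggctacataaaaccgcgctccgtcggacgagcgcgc

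Of the 33 genes, 26 had an entry in the promoter table, with 35 promoters between them because some genes have several starts. Egr1, Egr3, Fosl1, Ier2, Klf10, Dusp4 and Spry4 had no entry, so their promoters were not searched. In all other promoters only the 250 bases before the start were searched, so sites further away were not counted. The CREB core was in 62.9% of these 35 promoters and in 17.8% of all 32851 promoters of the table. It is in the printed Fos, Junb, Klf4, Nr4a1 and Dusp1 stretches, with 4 matches in Nr4a1. The full CREB site was in 2 of the 35 promoters, those of Dusp1 and of Maff, and in 1.55% of all promoters. The EGR site was in 31.4% of the 35 promoters and in 4.7% of all, and Klf4, Nr4a1 and Zfp36 are among the 11 genes with it. The CArG box was in 7 of the 35 promoters, belonging to Dusp5, Egr2, Srf and Zfp36, and in 1.47% of all promoters. The AP-1 site was in 1 promoter of Csrnp1 and in 6.75% of all promoters. Overlapping promoters of the same gene are counted separately in these shares, and a match is a run of letters and no evidence of binding.

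The arrays had medians between 4.55 and 4.6 over all probe sets. All 10 fibroblast markers, Col1a1, Col1a2, Col3a1, Fn1, Vim, Thy1, Pdgfra, Pdgfrb, S100a4 and Sparc, had mean levels between 7.53 and 13.03. The epithelial genes Epcam and Cdh1 had mean levels of 3.95 and 2.81, the leukocyte gene Ptprc 3.0 and the endothelial gene Pecam1 3.41. Not all markers of other cell types were this low. Means above 4.58, the median of all probe sets, were found for 1 of 5 epithelial markers, Krt8 at 5.72. The same held for 2 of 6 macrophage and blood markers, Csf1r at 6.24 and Lyz2 at 5.09, and 1 of 4 endothelial markers, Kdr at 6.51. The brightest Kdm5a signal was 6.11 and 5.89 in KDM5A-H483A cells, 5.96 and 5.83 in wild-type KDM5A cells and 5.89 and 5.83 in empty vector cells. The labels do not place its probes relative to the deletion or the re-introduced sequence, so Kdm5a checks neither.

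Mean levels over the 6 arrays lay between 3.74 for Dusp4 and 10.99 for Jund, and 30 of the 33 were at or above 4.58, the median of all probe sets, as were 11891 of all 18194 genes under the same choice of the brightest probe set. The probe sets with the highest means were those of Jund, an AP-1 subunit, at 10.99, Egr1, a zinc finger factor, at 9.82, Spry2, a Sprouty inhibitor, at 9.42, Dusp1 at 9.24 and Fosl2, a Fos relative, at 9.22. At the low end were Dusp4, a nuclear MAPK phosphatase, at 3.74, Fosb at 3.76 and Egr2 at 4.27, which ranked at the 32.2nd, 32.8th and 44.3rd percentile among probe sets, so their signal may be background. Dusp2 at 4.69 and Spry4 at 5.18 were next. Probe sets differ in how brightly they report the same amount of RNA, so these means do not order the genes by abundance.

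**Figure D1:**
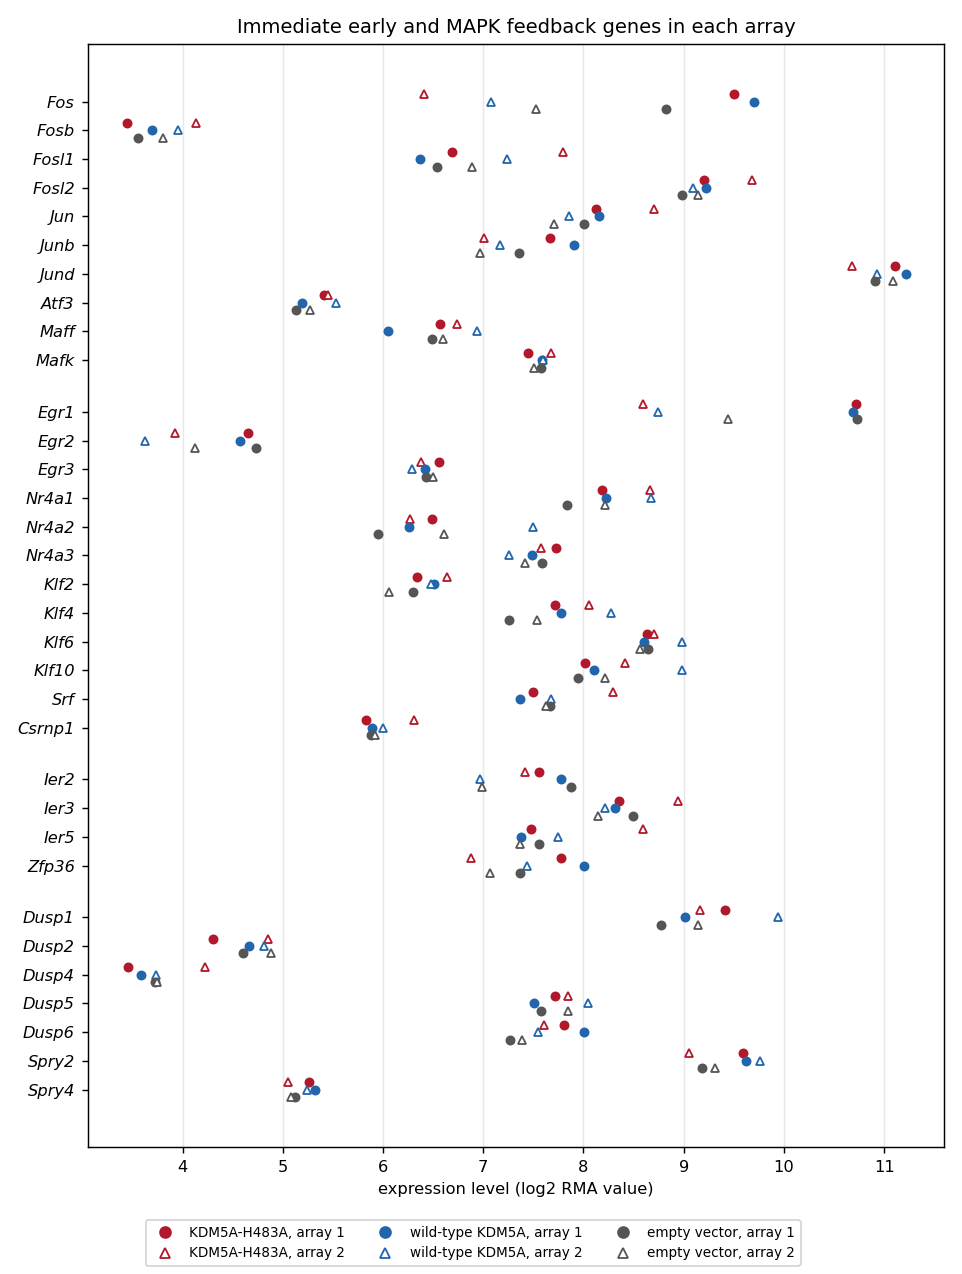
Log2 RMA level of each of the 33 genes (rows, grouped by role) in each of the 6 arrays. Colours mark the groups, filled circles the first and open triangles the second array of a group. Fos and Egr1 have the widest spread, with Fos between 6.41 and 9.70.

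Fos and Egr1 differed more between the 2 arrays of a group than between groups. Fos, the founding member of AP-1, measured 9.51 in the first and 6.41 in the second KDM5A-H483A array, 9.70 and 7.08 in wild-type KDM5A cells, and 8.82 and 7.52 in empty vector cells. Every first array was above every second array, by 3.09, 2.62 and 1.29 log2 units in these groups, which is 8.52-fold, 6.13-fold and 2.45-fold. Egr1, a growth factor-induced transcription factor, measured 10.72 and 8.59 in KDM5A-H483A cells, 10.69 and 8.74 in wild-type KDM5A cells, and 10.73 and 9.44 in empty vector cells. The 3 first arrays were close together, while the second arrays of both KDM5A groups lay below that of empty vector.

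Egr2, Junb, Zfp36 and Ier2, chosen by the size of their difference between arrays, were also higher in the first array of each group. Other immediate early genes were not, on their brightest probe sets. Fosb, Atf3, Klf4 and Nr4a1 were higher in each second array, and Jun, Ier3 and Dusp1 differed in order between groups. The other Jun probe set, of similar brightness, was higher in each second array. Its differences were 0.62 with KDM5A-H483A, 0.62 with wild-type KDM5A and 0.10 with empty vector. Egr2 measured 4.65 and 3.93 in KDM5A-H483A cells, 4.57 and 3.62 in wild-type KDM5A cells and 4.73 and 4.13 in empty vector cells. Junb, an AP-1 subunit, measured 7.66 and 7.0 in KDM5A-H483A cells, 7.90 and 7.17 in wild-type KDM5A cells, then 7.36 and 6.97 in empty vector cells. Zfp36, the mRNA decay factor, measured 7.77 and 6.88 in KDM5A-H483A cells, 8.0 and 7.44 in wild-type KDM5A cells and 7.36 and 7.07 in empty vector cells. Ier2, a nuclear protein gene of the same wave, measured 7.55 and 7.41 in KDM5A-H483A cells, 7.78 and 6.97 in wild-type KDM5A cells and 7.88 and 6.99 in empty vector cells. The Ier2 difference with KDM5A-H483A was 0.14, and Egr2 may be background.

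Fosl1, a Fos relative of the later AP-1 wave, ran in the opposite direction. It measured 6.69 and 7.80 in KDM5A-H483A cells, 6.37 and 7.24 in wild-type KDM5A cells and 6.54 and 6.88 in empty vector cells, so each second array was the higher. The second Fosl1 probe set was higher in each second array as well, by 0.71, 0.67 and 0.40. Klf10, a repressor induced by TGF-beta, was higher in the second array by 0.41 log2 units with KDM5A-H483A, 0.88 with wild-type KDM5A and 0.28 with empty vector. Nr4a1, an orphan nuclear receptor, was higher in the second array by 0.47, 0.45 and 0.37. Klf4 was higher there by 0.34, 0.50 and 0.27, while its second probe set was higher in the second array by 0.23 and 0.22 in the KDM5A groups and in the first array by 0.11 with empty vector. Nr4a2, a relative of Nr4a1, measured 6.49 and 6.27 in KDM5A-H483A cells, against 6.25 and 7.5 in wild-type KDM5A cells and 5.95 and 6.61 in empty vector cells. The order of arrays thus differed between groups on this probe set. The next brightest Nr4a2 probe set was higher in each second array, by 0.66, 0.55 and 0.43, and the dimmer ones differed among themselves.

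Over the 33 genes, 8 were higher in the first array in all 3 groups and 11 in the second, which is 24.2% and 33.3%, while over all genes these shares were 17.3% and 15.6%. The 8 were Fos, Egr1, Egr2, Ier2, Junb, Zfp36, Nr4a3 and Spry4. The 11 were Fosl1, Klf10, Nr4a1, Fosb, Maff, Klf4, Dusp2, Dusp4, Dusp5, Csrnp1 and Atf3. Both lists hold for the brightest probe sets only. The next brightest Nr4a3 probe set was higher in each second array, by 0.20 with KDM5A-H483A, 0.37 with wild-type KDM5A and 0.001 with empty vector. That of Spry4 was higher in the first array with KDM5A-H483A only, by 0.17. The dimmer Egr3 probe set was higher in each first array, by 0.86, 0.66 and 0.18. The arrays of a group lay at least 0.5 log2 units apart for 14 of the 33 genes (42.4%) with KDM5A-H483A, for 12 (36.4%) with wild-type KDM5A and for 5 (15.2%) with empty vector. Over all genes these shares were 14.9%, 11.2% and 3.79%. Among genes at or above the median probe set level they were 36.7%, 36.7% and 13.3% for the 30 genes of the set and 21.1%, 15.3% and 4.96% for all 11891 such genes. The median difference of the 33 genes, first minus second array, was -0.13, -0.10 and -0.04 in the 3 groups. In the KDM5A groups this was similar in size to the set's median difference from empty vector given below. That was 0.11 with KDM5A-H483A and 0.10 with wild-type KDM5A.

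Fibroblast markers differed between the same arrays. The log2 of their summed signal was 15.5 and 15 in the first and second KDM5A-H483A array, 15.6 and 14.9 in wild-type KDM5A cells, and 15.4 and 15.3 in empty vector cells. The markers did not move together: with KDM5A-H483A 7 of 10 were higher in the first array and 3 in the second, namely Vim at 13.00 and 13.39, Thy1 at 7.31 and 7.83 and S100a4 at 11.52 and 12.10. With wild-type KDM5A 10 of 10 and with empty vector 8 of 10 were higher in the first array. The median difference was 0.82, 0.79 and 0.16 in these groups. The summed epithelial markers stayed between 6.65 and 6.89 and the macrophage and blood markers between 7.24 and 7.48 in every array. Their part in the differences of the 33 genes was not tested. In bulk RNA, fewer cells of a kind and less RNA per cell cannot be told apart.

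**Figure D2:**
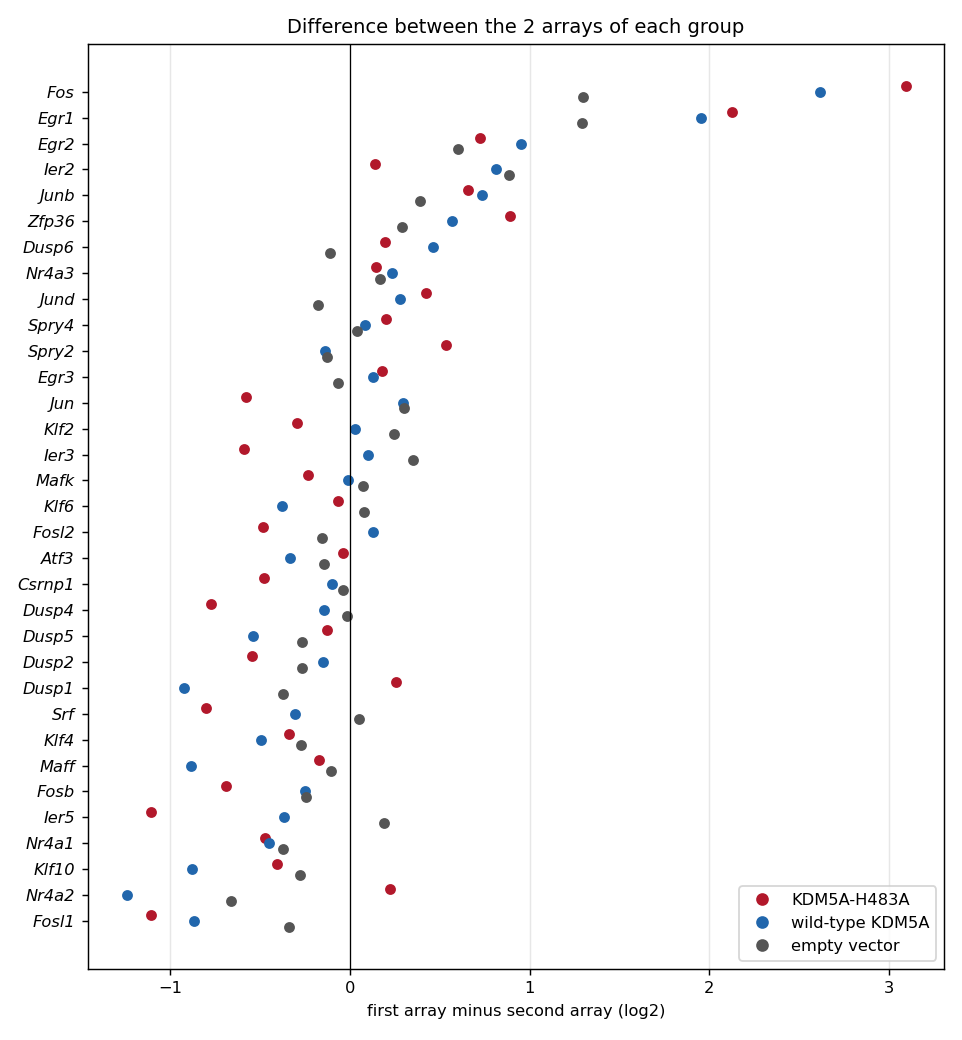
First minus second array (log2, horizontal axis) for each of the 33 genes, with a point per group, ordered by the mean of the 3 groups. Fos and Egr1 lie at the top, with all points above 1, and Fosl1 at the bottom, with all points below 0.

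In cells with KDM5A-H483A, Jun, Klf4, Dusp6, Fosl2 and Klf2 stood above empty vector in both arrays, by 1.24-fold to 1.47-fold, and no gene of the set passed the test. Limma called 0 of the 33 genes and 0 of all 18194 genes (0%) at an adjusted p of 0.05, with a smallest adjusted p of 0.999. Without adjustment, 1 of the 33 genes had p below 0.05, Jun, which was higher, against 0.967% of all genes higher and 0.687% lower. Both KDM5A-H483A arrays were above both empty vector arrays for 7 of the 33 genes, against 13.6% of all genes, and below them for 0, against 14.6%. The 7 were Jun, Klf4, Dusp6, Fosl2, Klf2, Atf3 and Dusp1. For Dusp1 the gap between the groups was only 0.018 log2 units.

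Jun, the AP-1 partner of Fos, measured 8.12 and 8.70 in KDM5A-H483A cells, against 8.0 and 7.70 in empty vector cells. The lower KDM5A-H483A array was 0.12 above the higher empty vector array. The log2 fold change was 0.56 (95% CI 0.01 to 1.11, SE 0.23, unadjusted p = 0.0475, limma adjusted p = 0.999). A second Jun probe set of similar brightness gave 0.09, so the 2 probe sets disagreed. Fosl2 measured 9.20 and 9.68 in KDM5A-H483A cells, against 8.99 and 9.14 in empty vector cells, with a log2 difference of 0.38 (95% CI -0.06 to 0.82). Its dimmer second probe set gave 0.12. Atf3, a stress-induced repressor of the same leucine zipper family, measured 5.42 and 5.45 in KDM5A-H483A cells, against 5.13 and 5.27 in empty vector cells, a log2 fold change of 0.23 (95% CI -0.14 to 0.60).

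Klf4, a zinc finger factor that slows proliferation in many cells, measured 7.72 and 8.06 in KDM5A-H483A cells, against 7.26 and 7.54 in empty vector cells. The groups did not overlap, and the log2 fold change was 0.49 (95% CI -0.03 to 1.01, SE 0.22, limma adjusted p = 0.999). Its second probe set gave 0.50. Klf2, a relative of Klf4, measured 6.34 and 6.64 in KDM5A-H483A cells, against 6.30 and 6.06 in empty vector cells, with a log2 fold change of 0.31 (95% CI -0.07 to 0.68). Nr4a1 measured 8.19 and 8.66 in KDM5A-H483A cells, against 7.84 and 8.21 in empty vector cells, and the groups overlapped, with a log2 fold change of 0.40 (95% CI -0.18 to 0.97). Fos and Egr1 differed by -0.21 and -0.43 on the log2 scale, with 95% CIs of -3.08 to 2.66 and -2.57 to 1.71. These intervals include the difference between first and second arrays described above, which the fit counts as spread.

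Dusp6, the cytoplasmic phosphatase specific for ERK, measured 7.80 and 7.61 in KDM5A-H483A cells, against 7.27 and 7.38 in empty vector cells. The log2 fold change was 0.38 (95% CI -0.06 to 0.82, SE 0.18, limma adjusted p = 0.999). Ier5, a regulator of heat shock factor, measured 7.48 and 8.59 in KDM5A-H483A cells, against 7.56 and 7.37 in empty vector cells. Only the second KDM5A-H483A array was above both empty vector arrays, so the log2 fold change of 0.57 (95% CI -0.27 to 1.42) rested on that array, and a second Ier5 probe set gave -0.32. Egr3, a relative of Egr1, differed by 0.01 on its brighter probe set and by -0.77 on the other. Among the other phosphatase and Sprouty genes, log2 fold changes lay between -0.16 for Dusp2 and 0.33 for Dusp1.

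By role, 8 of 10 AP-1 genes had a log2 fold change above 0 between KDM5A-H483A and empty vector, with a median of 0.14. The zinc finger, nuclear receptor and SRF factors had 10 of 12 above 0 and a median of 0.14. The Ier genes with Zfp36 had 4 of 4 and a median of 0.22, but the groups overlapped for each of these 4. The phosphatase and Sprouty genes had 6 of 7 and a median of 0.08. For the whole set the log2 fold changes ranged from -0.43 (Egr1) to 0.57 (Ier5), and 28 of 33 were above 0 with a median of 0.11, while over all genes 50.2% were above 0 with a median of 0.00. Leaving out 1 array at a time kept the median of the set between 0.11 and 0.19, the highest without the first KDM5A-H483A array. Single genes moved more. In the same fits the log2 fold change lay between 0.27 and 0.85 for Jun and between 0.02 and 1.13 for Ier5.

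In cells with wild-type KDM5A, Klf4, Dusp6, Spry2, Klf2, Nr4a1 and Zfp36 stood above empty vector in both arrays, by 1.24-fold to 1.55-fold, and here too no gene passed the test. Limma called 0 of the 33 genes and 0 of all genes (0%) at an adjusted p of 0.05, with a smallest adjusted p of 1. Without adjustment, 2 of the 33 genes had p below 0.05, Klf4 and Dusp6, both higher, against 1.51% of all genes higher and 1.01% lower. Both wild-type KDM5A arrays were above both empty vector arrays for 8 of the 33 genes, against 16.5% of all genes, and below them for 1, Egr3, against 15.4%. The others of the 8 were Spry4 and Mafk. The gap between the groups was only 0.005 log2 units for Mafk and 0.011 for Egr3. This comparison uses the same empty vector arrays as the one with KDM5A-H483A, so genes that stood above empty vector in both are not independent observations.

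Klf4 measured 7.78 and 8.28 in wild-type KDM5A cells, against 7.26 and 7.54 in empty vector cells. The lower wild-type KDM5A array was 0.24 above the higher empty vector array. The log2 fold change was 0.63 (SE 0.22, unadjusted p = 0.0251, limma adjusted p = 1), and the second probe set gave 0.44. Nr4a1 measured 8.22 and 8.67 in wild-type KDM5A cells, against 7.84 and 8.21 in empty vector cells, a gap between groups of 0.01, and its log2 fold change was 0.42 (95% CI -0.15 to 1.00). Klf2 measured 6.50 and 6.48 in wild-type KDM5A cells, against 6.30 and 6.06 in empty vector cells, with a log2 fold change of 0.31 (95% CI -0.07 to 0.68). Klf10 measured 8.10 and 8.98 in wild-type KDM5A cells, against 7.94 and 8.22 in empty vector cells, and the groups overlapped.

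Among the brakes on MAPK signalling, Dusp6 measured 8.01 and 7.55 in wild-type KDM5A cells, against 7.27 and 7.38 in empty vector cells. The log2 fold change was 0.45 (95% CI 0.01 to 0.89, SE 0.18, unadjusted p = 0.0459, limma adjusted p = 1). Spry2 measured 9.62 and 9.76 in wild-type KDM5A cells, against 9.18 and 9.31 in empty vector cells, with a log2 fold change of 0.45 (95% CI -0.02 to 0.92, SE 0.19). The Spry2 groups did not overlap, with a gap of 0.31 between them, while its dim second probe set gave -0.17. Dusp1, a nuclear phosphatase that is itself an immediate early gene, measured 9.01 and 9.94 in wild-type KDM5A cells, against 8.77 and 9.14 in empty vector cells, and the groups overlapped. Zfp36 measured 8.0 and 7.44 in wild-type KDM5A cells, against 7.36 and 7.07 in empty vector cells, a log2 fold change of 0.50 (95% CI -0.28 to 1.29).

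By role, 9 of 10 AP-1 genes had a log2 fold change above 0 in wild-type KDM5A against empty vector cells (median 0.12), as had 7 of 12 zinc finger, nuclear receptor and SRF factors (median 0.12). The phosphatase and Sprouty genes had 5 of 7 above 0 and a median of 0.17, and the Ier genes with Zfp36 had 2 of 4 and a median of 0.02. Over the set the range was -0.37 (Egr1) to 0.63 (Klf4), and 23 of 33 were above 0, with a median of 0.10, while over all genes 51.3% were above 0 with a median of 0.00. The median of the set was 0.04 without the second wild-type KDM5A array, 0.19 without the first empty vector array, 0.16 without the second and 0.04 after repeated quantile normalization of all 6 arrays. With 1 array left out at a time, Klf4's log2 fold change lay between 0.38 and 0.88 and that of Dusp6 between 0.22 and 0.68.

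Between KDM5A-H483A and wild-type KDM5A, the comparison that bears on the catalytic histidine, Nr4a3 and Ier3 stood higher and Spry2 lower in both KDM5A-H483A arrays, by 1.22-fold to 1.3-fold. Limma called 0 of the 33 genes and 0 of all genes (0%), with a smallest adjusted p of 0.928. Without adjustment, 0 of the 33 genes had p below 0.05, against 1.87% of all genes higher and 1.95% lower. Both KDM5A-H483A arrays were above both wild-type KDM5A arrays for 2 of the 33 genes, against 14.9% of all genes, and below them for 1, against 16.1%. The set had 15 of 33 log2 fold changes above 0, a range of -0.50 (Nr4a2) to 0.47 (Ier5) and a median of -0.02. The next brightest probe sets of Nr4a2 and Ier5 gave 0.07 and -0.49, so both ends of this range depended on the probe set.

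Nr4a3, an orphan nuclear receptor, measured 7.73 and 7.58 in KDM5A-H483A cells, against 7.49 and 7.25 in wild-type KDM5A cells. The log2 fold change was 0.28 (95% CI -0.06 to 0.63, SE 0.14, unadjusted p = 0.0933, limma adjusted p = 0.928), and its other probe sets gave 0.02 and -0.02. Spry2 measured 9.59 and 9.06 in KDM5A-H483A cells, against 9.62 and 9.76 in wild-type KDM5A cells. The first KDM5A-H483A array was 0.03 below the lower wild-type KDM5A array, and the log2 fold change was -0.37 (95% CI -0.84 to 0.10, SE 0.19). Ier3, an early gene linked to survival under stress, measured 8.35 and 8.94 in KDM5A-H483A cells, against 8.31 and 8.22 in wild-type KDM5A cells, a log2 fold change of 0.38 (95% CI -0.16 to 0.92).

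Srf, the factor that binds CArG boxes, measured 7.49 and 8.29 in KDM5A-H483A cells, against 7.37 and 7.68 in wild-type KDM5A cells, and the groups overlapped. Jun had a log2 fold change of 0.41 (95% CI -0.15 to 0.96), with the arrays overlapping, and its second probe set gave -0.08. Fosl2 and Ier5 differed by 0.28 and 0.47 on the log2 scale, with 95% CIs of -0.16 to 0.73 and -0.37 to 1.32. The other probe set of Fosl2 gave 0.00, and the other probe sets of Ier5 gave -0.49 and 0.05. Zfp36 measured 7.77 and 6.88 in KDM5A-H483A cells, against 8.0 and 7.44 in wild-type KDM5A cells, a log2 fold change of -0.39 (95% CI -1.18 to 0.39). For Klf4 the difference was -0.14 (95% CI -0.66 to 0.38), for Dusp6 -0.07 (95% CI -0.51 to 0.37) and for Klf2 -0.00 (95% CI -0.38 to 0.38), so for these 3 genes a difference of more than 0.66 in either direction lay outside the intervals. The median of the set was 0.11 without the second wild-type KDM5A array and 0.01 after repeated quantile normalization.

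**Figure D3:**
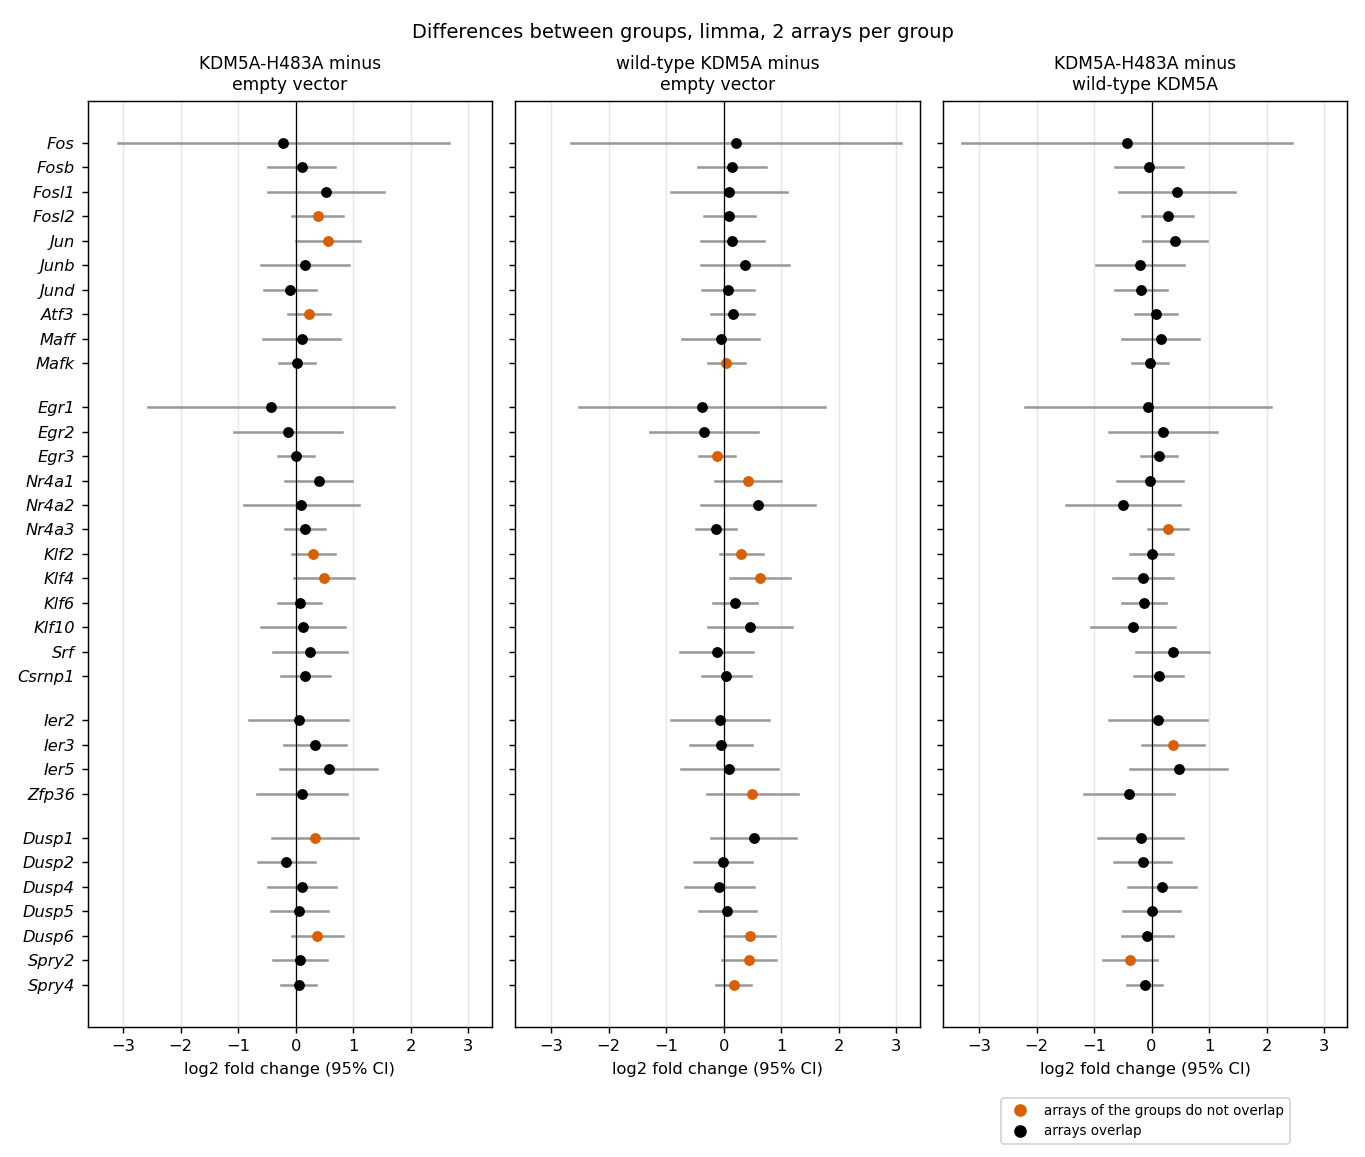
Log2 fold change of each of the 33 genes (rows, grouped by role) in the 3 comparisons, with limma's 95% CI as a bar. Orange points mark genes whose arrays do not overlap between the groups: 7 for KDM5A-H483A against empty vector, 9 for wild-type KDM5A against empty vector and 3 for KDM5A-H483A against wild-type KDM5A.

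**Figure D4:**
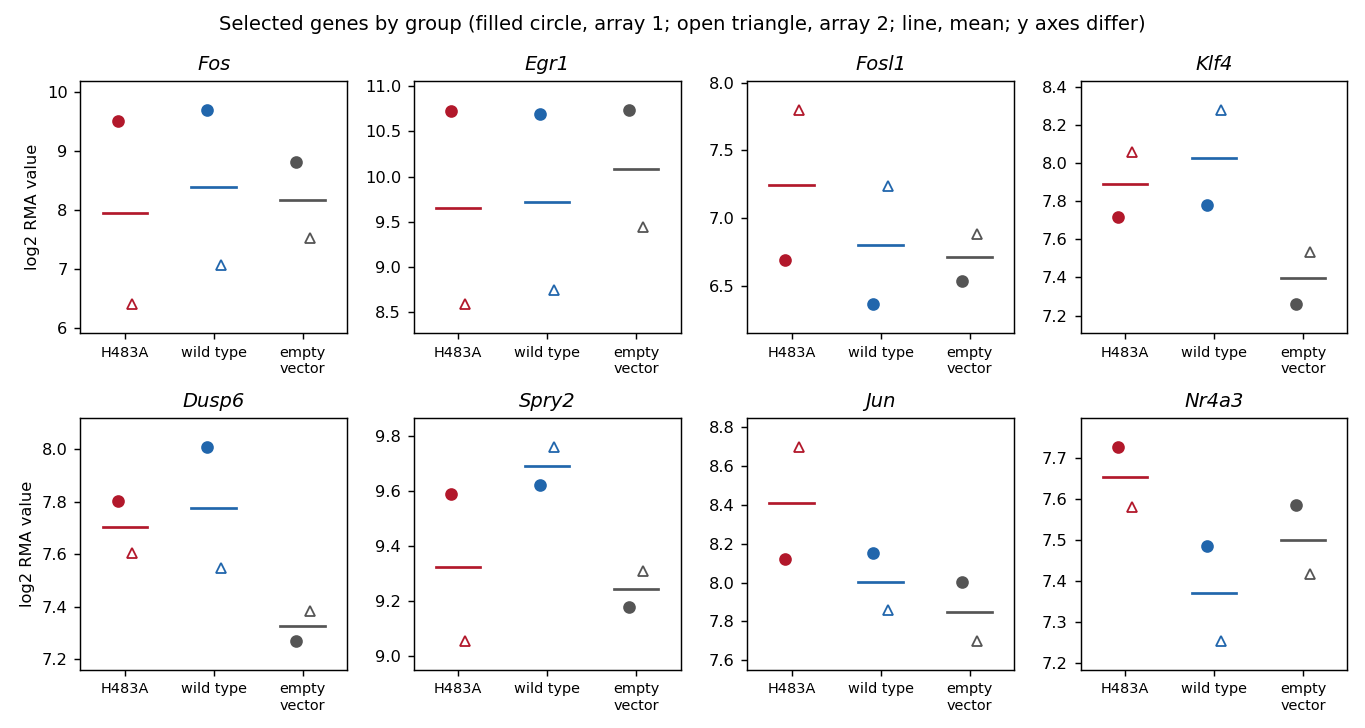
Log2 RMA level of 8 genes by group, with the first array as a filled circle, the second as an open triangle and the mean as a line, on a separate vertical scale for each gene. Klf4 and Dusp6 stood above empty vector in all 4 KDM5A arrays, while Fos and Egr1 were split by array within each group.

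Upstream of these genes, the ERK cascade was represented by 23 of 31 listed genes, from receptors to ribosomal S6 kinases. Limma called 0 of 23 in each comparison. The median log2 fold change was 0.00 for KDM5A-H483A against empty vector, 0.18 for wild-type KDM5A against empty vector and -0.10 for KDM5A-H483A against wild-type KDM5A. The smallest unadjusted p in the second of these belonged to Rps6ka5, a kinase that phosphorylates CREB and histone H3, which measured 4.83 and 5.22 in wild-type KDM5A cells, against 4.45 and 4.56 in empty vector cells. Mknk2, an ERK-activated kinase of the translation factor eIF4E, measured 10.01 and 9.93 in KDM5A-H483A cells, 10.41 and 10.20 in wild-type KDM5A cells and 9.94 and 9.95 in empty vector cells. Its log2 fold change was -0.34 (95% CI -0.65 to -0.03), with a limma adjusted p of 0.928, for KDM5A-H483A against wild-type KDM5A.

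The stress kinase cascades of JNK and p38 had 17 of 18 listed genes measured and 0 called, with medians of 0.10, 0.06 and 0.00 in the same order of comparisons. Mapk8, which encodes JNK1, measured 6.75 and 6.70 in KDM5A-H483A cells, against 7.05 and 7.17 in wild-type KDM5A cells, a log2 fold change of -0.38 (95% CI -0.69 to -0.07, limma adjusted p = 0.928). Partners of SRF, AP-1 and CREB had 17 of 19 measured and 0 called, with medians of -0.01, 0.04 and 0.02. Elk3, an ETS partner of SRF, measured 9.69 and 9.53 in KDM5A-H483A cells, against 9.92 and 10.05 in wild-type KDM5A cells. Mrtfb, an actin-regulated partner of SRF, measured 8.46 and 8.31 in KDM5A-H483A cells, against 8.69 and 8.77 in wild-type KDM5A cells. In both the groups were apart.

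Other feedback regulators of MAPK signalling had 20 of 20 genes measured and 0 called, with medians of -0.04, 0.10 and -0.12. Spred2, a relative of the Sprouty genes, measured 8.27 and 8.28 in KDM5A-H483A cells, 8.6 and 8.83 in wild-type KDM5A cells and 8.23 and 8.56 in empty vector cells. For KDM5A-H483A against wild-type KDM5A the log2 fold change was -0.44 (95% CI -0.82 to -0.06) for Spred2 and -0.47 (95% CI -0.94 to -0.00) for Spred1, neither past the threshold. Dusp7, an ERK phosphatase related to Dusp6, measured 6.49 and 6.33 in KDM5A-H483A cells, against 6.06 and 6.18 in empty vector cells.

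Early serum-response genes outside the set had 41 of 42 measured and 0 called, with medians of 0.04, 0.12 and -0.04. Ccnd1, the cyclin gene that couples ERK signalling to entry into the cell cycle, had the smallest unadjusted p of this list in both comparisons with empty vector. It measured 10.54 and 10.72 in KDM5A-H483A cells, 10.51 and 10.44 in wild-type KDM5A cells and 10.02 and 9.98 in empty vector cells. Its difference from empty vector was 0.63 log2 units with KDM5A-H483A (95% CI 0.32 to 0.93) and 0.47 with wild-type KDM5A (95% CI 0.17 to 0.78), with limma adjusted p of 0.999 and 1. Gadd45g, a stress-response gene, measured 6.84 and 7.30 in KDM5A-H483A cells, 6.54 and 6.07 in wild-type KDM5A cells and 6.70 and 6.15 in empty vector cells, and was 1.7-fold higher with KDM5A-H483A than with wild-type KDM5A (unadjusted p = 0.0252, limma adjusted p = 0.928).

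With 2 arrays per group, an exact permutation test of a single gene cannot give a two-sided p below 0.333, so only the fit across all genes was used. The median 95% interval over all genes reached 0.37 to either side of the log2 fold change, and over the 33 genes 0.55.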

How the data were processed

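RNA of 6 fibroblast cultures was measured on Affymetrix mouse M430 2.0 arrays, 2 per group. The deposited table holds log2 values of 45101 probe sets, made by the authors with RMA per the submitters' processing notes (version not stated there). RMA shrinks differences of dim probe sets, and equal array distributions hide changes in total RNA. Precision is limited by how few arrays there are. The platform annotation gave 34958 probe sets 1 symbol, 932 several and 9211 none. Of the probe sets with 1 symbol, 34754 matched the RefSeq gene table (GRCm38.p6) by Entrez ID and took its symbol.

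Differences were tested with limma (version 3.58.1, R 4.3.3), with 1 mean per group over all 6 arrays and eBayes (3 residual and 3.42 prior degrees of freedom). P-values are two-sided, adjusted over 18194 genes by Benjamini-Hochberg, threshold 0.05. The procedure was tested on simulated data. The genes named with values were, per comparison, the 8 members with the smallest unadjusted p, the 5 highest and 5 lowest by level and the 8 with the largest difference between arrays of a group. From the other gene lists, up to 2 genes per comparison with the smallest p were eligible. Some members are also named to complete a count or a range. The members and lists were chosen with earlier results of these data known. Scanner files were not analysed here, so background correction could not be varied. The alternatives were 14, 6 of them leaving out 1 array.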

Additional observations from a re-analysis of the deposited data

How the results depend on the processing

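Limma called 0 of the 33 genes and 0 genes overall in each comparison under all 14 alternatives: the replicate number as a block, a fit on the compared groups only, eBayes with trend and robust settings, removal of dim genes, the mean of all probe sets, the brightest probe set with any suffix, median centring, a repeated quantile normalization and leaving out each array in turn. Where an array was left out, its group had 1 array that was assumed to vary like the others. For wild-type KDM5A against empty vector, the median log2 fold change of the 33 genes was 0.0407 after repeated quantile normalization, against 0.0988 as reported. Leaving out 1 array at a time, it lay between 0.0417 and 0.1921, while the median between KDM5A-H483A and wild-type KDM5A, reported as -0.0234, lay between -0.0296 and 0.1089 and was 0.0056 after repeated quantile normalization. The cause was not tested. When an array was left out, the sign of a named gene's difference changed in 25, 19 and 30 of 162 values each. The order is KDM5A-H483A and wild-type KDM5A against empty vector, then KDM5A-H483A against wild-type KDM5A. Under the other settings it changed in 1, 2 and 2 of 213 values each. Both totals include values that could not change, because an array of the group outside a comparison does not enter that difference. The replicate block, the fit on compared groups only and the eBayes settings also leave a difference as it was. The shares of changed signs therefore understate how unstable the signs were.

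The labels give the groups the same replicate numbers but no shared batch. Across genes, the differences between the arrays of a group correlated at 0.534 between KDM5A-H483A and wild-type KDM5A, at 0.016 between KDM5A-H483A and empty vector and at 0.312 between wild-type KDM5A and empty vector. Whether same-numbered samples were handled together was not tested. The reported fit left the replicate number out because the labels name no batch. Any difference that same-numbered arrays share is therefore counted as spread in that fit. With the replicate block, limma called 0 of the 33 genes in each comparison (smallest adjusted p of the set 0.996 and 0.998 for the mutant and the wild-type form set against empty vector, and 0.795 for the mutant against the wild type). Without adjustment, the block gave 4 genes of the set with p below 0.05 for KDM5A-H483A against empty vector, where the reported fit gave 1, and 6 for wild-type KDM5A against empty vector, where it gave 2. For KDM5A-H483A against empty vector, the SE under the replicate block was 0.382 for Fos, against 1.19 as reported, and 0.212 for Egr1, against 0.889 (unadjusted p = 0.0838 for Egr1, against 0.644, limma adjusted p = 0.996). The count of genes of the set with an unadjusted p below 0.05 in the comparisons with empty vector was 0 and 1 after dropping dim genes, 0 and 1 with trend and robust settings, 2 and 3 in the fit on compared groups, 1 and 3 after median centring and 1 and 1 after repeated quantile normalization. Shares of all genes with an unadjusted p below 0.05 are not given for the block or for these other fits. The counts under them therefore do not set the 33 genes apart from other genes. No group had more than 2 arrays, so outlying arrays were not tested.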
